A study of Caenorhabditis elegans with 20 samples.

Results

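The 8 genes described here are the named components of the mitochondrial unfolded protein response of Caenorhabditis elegans: the chaperone genes hsp-6, hsp-60 and dnj-10, the regulator genes atfs-1, dve-1 and ubl-5, and the protease genes clpp-1 and lonp-1. They were taken by gene symbol, and the rule uses no measured value, although the set was chosen with earlier results of these data known. All 8 were found among the 46904 gene IDs of the deposited count table. Stranded mRNA sequencing of poly(A) RNA gave 4 groups of 3 replicates, each from whole animals. The groups were WT without mold, WT with the mold Penicillium brevicompactum on the plate, ns889 without mold and ns889 with mold. All groups were young adults grown for about 48 hours from L1 arrest at 20 C on NGM plates with Escherichia coli OP50. The labels name ns889 as a genotype and do not name the gene it affects. They do not say whether the replicates were separate cultures, so each p-value measures the spread between these samples.

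The mitochondrial unfolded protein response is a nuclear transcription programme that raises chaperones and proteases of mitochondria when protein folding or import there is disturbed. ATFS-1, the transcription factor at its centre, carries both a mitochondrial and a nuclear targeting signal. It is imported and degraded in healthy mitochondria by the LONP-1 protease, and it accumulates in the nucleus when import is impaired. The response is therefore set largely by where the ATFS-1 protein is, which RNA levels do not measure. In the worm, hsp-6 and hsp-60 are its standard reporter genes, and some mitochondrial toxins and bacterial pathogens are known to raise them.

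All 12 replicates were deep, at 95998037 to 115940062 counts each, and the 8 genes were covered by between 1166 counts (ubl-5, lowest library) and 135077 counts (hsp-6, highest library). Levels are given as CPM, the counts of a gene per 1000000 counts of the scaled library total. At this depth 3 counts correspond to 0.0259 to 0.0313 CPM, a floor that covers counting error only and lies far below every value of the 8 genes. Replicate 1 of unexposed WT and replicate 3 of exposed WT (exposed meaning with mold) stood farthest from the other replicates of their group, with root mean square deviations of 0.641 and 0.62 on the log2 scale. The other replicates were at 0.377 to 0.568. Calls of the 8 genes, and of the genes named from other lists, are therefore also given without this pair of libraries. The pair was picked after seeing the data, for its distance from the other replicates. Leaving it out raised the count of genes called in each comparison, for mold in WT from 1064 to 3860. The labels give whole animals, and markers of sperm, oocytes, germline, intestine, body muscle, epidermis and neurons were all detected, with no listed marker at 0 in all replicates. In such RNA, fewer cells of a type and less RNA per cell cannot be told apart.

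The 8 genes are spread over 5 chromosomes of the WBcel235 genome, and all are protein coding. Coordinates are those of the deposited table. The hsp-6 gene (WBGene00002010) lies on V:4824130-4826760, minus strand, and encodes the mitochondrial HSP70. The hsp-60 gene (WBGene00002025) lies on III:1619742-1625797, plus strand, and encodes the mitochondrial chaperonin HSP60. The dnj-10 gene (WBGene00001028) lies on III:8631165-8633549, plus strand, and encodes a mitochondrial DnaJ cochaperone of HSP70. The atfs-1 gene (WBGene00013878) lies on V:14193685-14197695, plus strand. The dve-1 gene (WBGene00022861), on X:427043-433799, minus strand, encodes a homeodomain protein that binds chaperone gene promoters during the response. The ubl-5 gene (WBGene00006726), on I:5607820-5608841, minus strand, encodes a small ubiquitin-like protein that works with DVE-1. The clpp-1 gene (WBGene00014172), on II:10300789-10302859, minus strand, encodes the matrix protease ClpP. The lonp-1 gene (WBGene00016391), on I:10676922-10682374, minus strand, encodes the matrix Lon protease. No exon base of the 8 genes was shared with another gene in the deposited annotation. In annotation release 115 the span of clpp-1 overlaps mdt-22 on the opposite strand by 673 bases.

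Per kilobase of exon, hsp-6 and hsp-60 stood far above the other 6 genes. The hsp-6 level averaged 453 CPM per kilobase over the 12 replicates (358 to 518), above 98.6% of the 16980 genes tested. The hsp-60 level averaged 327 CPM per kilobase (252 to 380.2), above 98.2% of tested genes. The ranges of these neighbours overlapped over all replicates, but within each replicate hsp-6 was the higher, at 1.24 to 1.63 times hsp-60.

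The genes lonp-1, dnj-10, atfs-1 and ubl-5 formed a middle group whose ranges over the 12 replicates all overlapped, so their order over all replicates is not resolved. Their mean levels per kilobase were 55.8 CPM for lonp-1 (52.3 to 60.7), 55.8 for dnj-10 (48.7 to 60.8), 46.5 for atfs-1 (37.2 to 58.9) and 45.4 for ubl-5 (35.2 to 58.0). The clpp-1 level was lower than all of these, at 32.0 CPM per kilobase (30.1 to 34.1). The dve-1 level was the lowest, at 9.01 CPM per kilobase (6.87 to 11.004), above 54.9% of tested genes. Within the middle group, every atfs-1 value without mold (37.2 to 40.9) lay below every lonp-1 (52.3 to 59.8) and dnj-10 value (48.7 to 59.5) without mold.

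**Figure D1:**
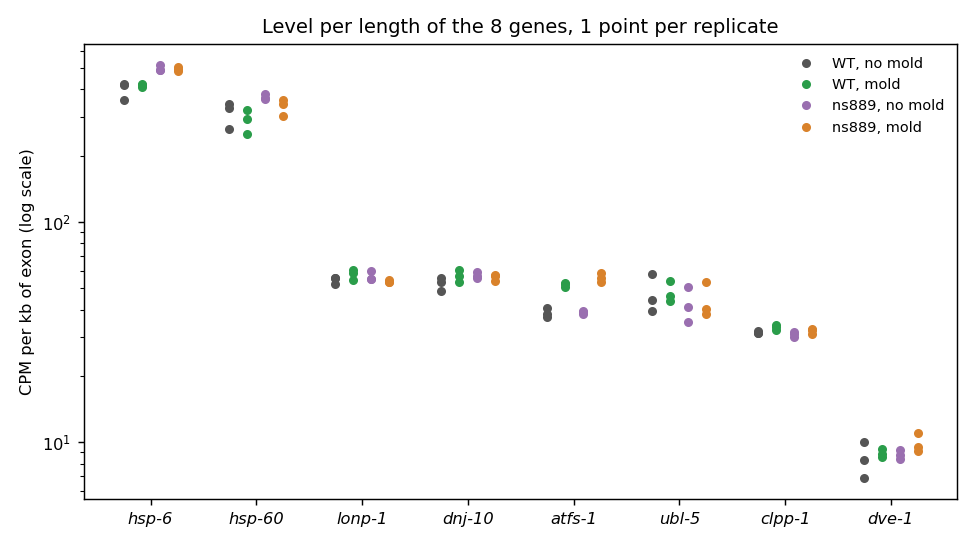
Level of each of the 8 genes in CPM per kilobase of exon (log axis), with each point 1 of the 12 replicates and the groups marked by colour. The hsp-6 and hsp-60 points lie between 252 and 518 CPM per kilobase and the dve-1 points between 6.87 and 11.004.

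The transcript of the central regulator atfs-1 rose with mold in both genotypes. In WT its level was 77.8, 72.9 and 70.7 CPM without mold and 96.9, 99.98 and 100.6 CPM with mold. In ns889 it was 74.3, 75.4 and 72.6 CPM without mold and 106.05, 112 and 101.6 CPM with mold. Every replicate with mold was above every replicate without it, in both genotypes. The increase was 1.34-fold in WT (95% interval 1.23 to 1.47; log2 0.43 ± 0.06 SE, n = 3 and 3, adjusted p = 0.0024, edgeR's quasi-likelihood test). It was 1.44-fold in ns889 (1.31 to 1.57; log2 0.52 ± 0.06 SE, n = 3 and 3, adjusted p = 0.00049, same test). By p-value atfs-1 ranked 72 of 16980 genes in WT and 42 in ns889.

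The size of the atfs-1 increase did not pass the test of a difference between genotypes: the log2 difference was 0.10, with an interval of -0.09 to 0.28 and an adjusted p of 0.87. Without mold the genotypes had nearly equal means, 73.8 ± 3.63 CPM in WT and 74.1 ± 1.38 in ns889 (SD, n = 3 each; log2 difference 0.01, interval -0.12 to 0.13). With mold all 3 ns889 replicates were above all 3 WT replicates, at 106.5 ± 5.13 against 99.2 ± 1.99 CPM, but the log2 difference of 0.10 ± 0.06 did not pass (adjusted p = 0.291). Averaged over both genotypes, a contrast added after seeing the data, the log2 increase with mold was 0.47 ± 0.04 (adjusted p = 3.4e-05). Without the pair of libraries named above, the WT increase was 0.46 on the log2 scale (adjusted p = 0.00025) and that in ns889 0.52 (adjusted p = 3.48e-05).

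Over 21 other settings in WT the atfs-1 increase lay between 0.38 and 0.47 on the log2 scale, and it missed the threshold in 1 setting, the fit of the 2 WT groups alone (log2 0.41, adjusted p = 0.0978). In ns889 it passed in every one of the 21 settings tried, at 0.50 to 0.56. Markers of other cell types moved with the mold. The summed level of 29 sperm markers was 469 to 693 CPM in WT without mold and 353 to 457 with mold, and 12 of the 29 fell. That count was 0 without replicate 2 or 3 of unexposed WT or replicate 2 of exposed WT, 1 without replicate 3 of exposed WT, and 20 and 23 without replicate 1 of exposed and of unexposed WT. It was 2 to 6 without any 1 of the ns889 libraries but replicate 2 of exposed ns889, where it was 11. In ns889 that sum was 640.0 to 667 without mold and 489 to 567 with mold, and 0 of the 29 passed the test, with a median log2 change of -0.36. A second sperm list held major sperm protein genes, of which 29 were tested. Of these, 1 fell with mold in WT and 0 in ns889, with median log2 changes of -0.55 and -0.29. Beside the counts of both sperm lists, 6.27% of all tested genes were called with mold in WT and 3.14% in ns889. The summed level of 15 oocyte markers was 6775 to 9764 and 8570 to 10846 CPM in WT, and 6518 to 7340 and 7224 to 8544 in ns889, without and with mold, with none past the threshold. The part of these cell types in the atfs-1 increase was not tested.

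**Figure D2:**
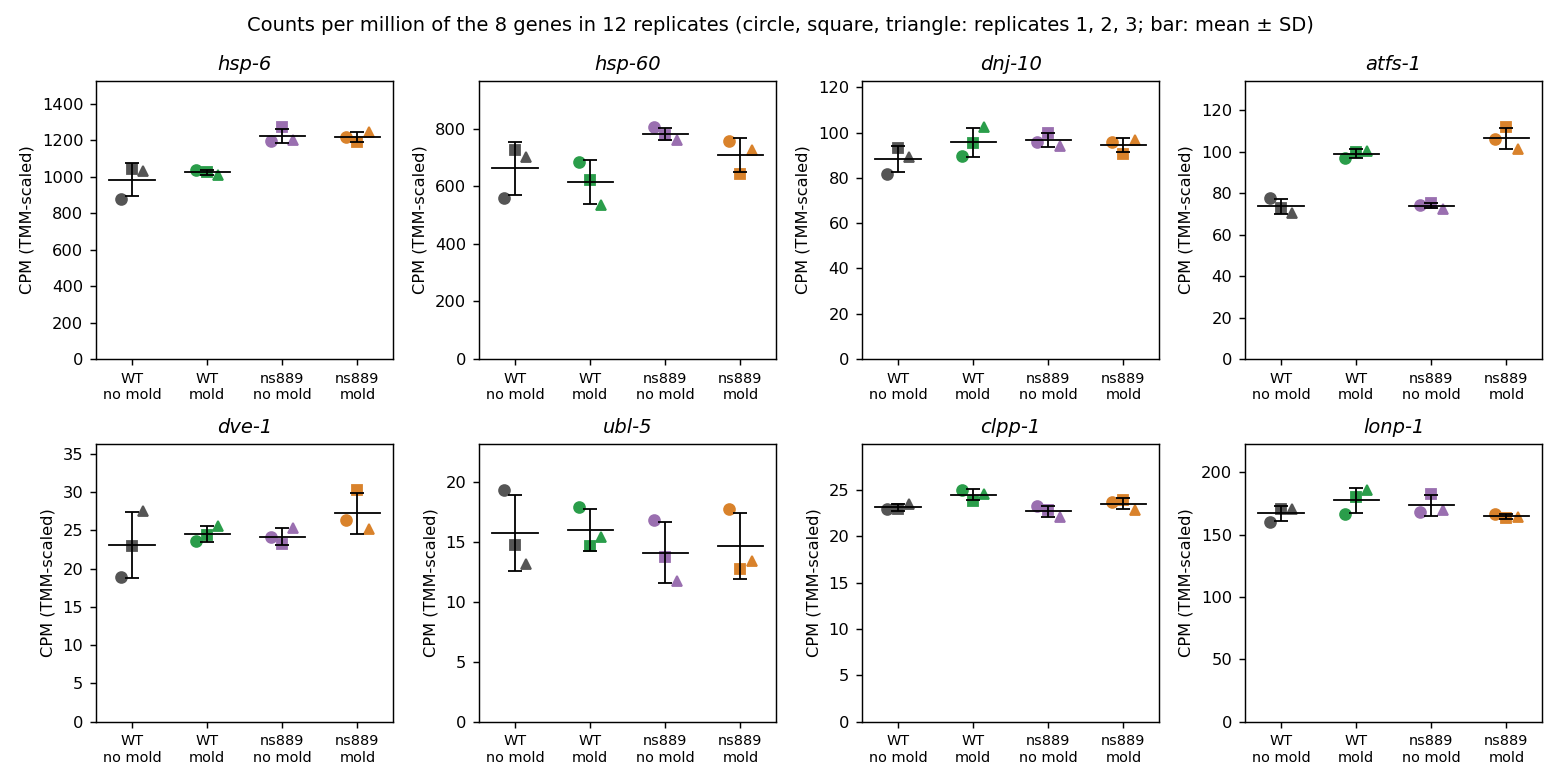
CPM of each of the 8 genes in the 12 replicates, 1 panel a gene with its own axis, marker shapes for replicates 1 to 3, and a line for the group mean with its SD (n = 3). The atfs-1 points with mold, 96.9 to 112 CPM, all lie above those without mold, 70.7 to 77.8 CPM, and the hsp-6 points of ns889, 1189.7 to 1272 CPM, all lie above those of WT, 879.6 to 1043 CPM.

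The main chaperone gene hsp-6 did not pass the test for mold in either genotype. In WT its level was 879.6, 1043 and 1032 CPM without mold and 1036.5, 1029.5 and 1008 CPM with mold. The ns889 values were 1199.6, 1272 and 1202.5 CPM without mold and 1216, 1189.7 and 1246 CPM with mold. The values with and without mold overlapped in each genotype, while every ns889 replicate was above every WT replicate. The log2 difference with mold was 0.06 in WT (interval -0.09 to 0.21, adjusted p = 0.618) and -0.01 in ns889 (interval -0.16 to 0.14, adjusted p = 0.971). In fold terms the WT interval reached from 0.939 to 1.153, and the ns889 interval from 0.897 to 1.10, so an increase the size of that of atfs-1 lies outside both.

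The hsp-6 transcript was higher in ns889 than in WT. Without mold the difference was 1.24-fold (interval 1.12 to 1.38; log2 0.31 ± 0.07 SE, n = 3 and 3, adjusted p = 0.0248, edgeR's quasi-likelihood test). With mold it was 1.19-fold (1.07 to 1.32; log2 0.25 ± 0.07 SE, n = 3 and 3, adjusted p = 0.0485, same test). These comparisons use the 12 replicates in separate pairs of groups. The log2 differences between replicates of the same number were 0.45, 0.29 and 0.22 without mold and 0.23, 0.21 and 0.31 with mold. Their sign was fixed, because every ns889 replicate was above every WT replicate. Averaged over both conditions, a contrast added after seeing the data, hsp-6 was 1.22-fold higher in ns889 (log2 0.28 ± 0.05, adjusted p = 0.00236).

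The genotype difference of hsp-6 was near the threshold, more so with mold. Without mold it passed in 17 of 21 other settings and was lost without any replicate of unexposed ns889, that is 1 (adjusted p = 0.067), 2 (0.136) or 3 (0.0762), and in the fit of the 2 groups alone (0.0776). With mold it passed in 9 of 21. The losses included the fit of the 2 groups alone (0.0771) and the fits without replicate 2 (0.0552) or 3 (0.0613) of unexposed WT, without replicate 2 (0.135) or 3 (0.114) of exposed WT, and without any 1 of the 6 ns889 libraries (0.0561 to 0.147). The log2 difference stayed between 0.24 and 0.36 without mold and between 0.23 and 0.30 with mold in all of these. With the pair of outlying WT libraries left out it was 0.24 without mold (adjusted p = 0.0139) and 0.24 with mold (adjusted p = 0.0116). The germline marker sum, over 9 genes, was 3242 to 3277 and 3289 to 3588 CPM in WT and 2890 to 3046 and 2894 to 2981 in ns889, without and with mold. Of the 9, 0 passed between genotypes without mold and 1 was lower in ns889 with mold. Of all tested genes, 2.87% and 6.73% were called in these comparisons. The part of germline RNA in the hsp-6 difference was not tested.

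**Figure D3:**
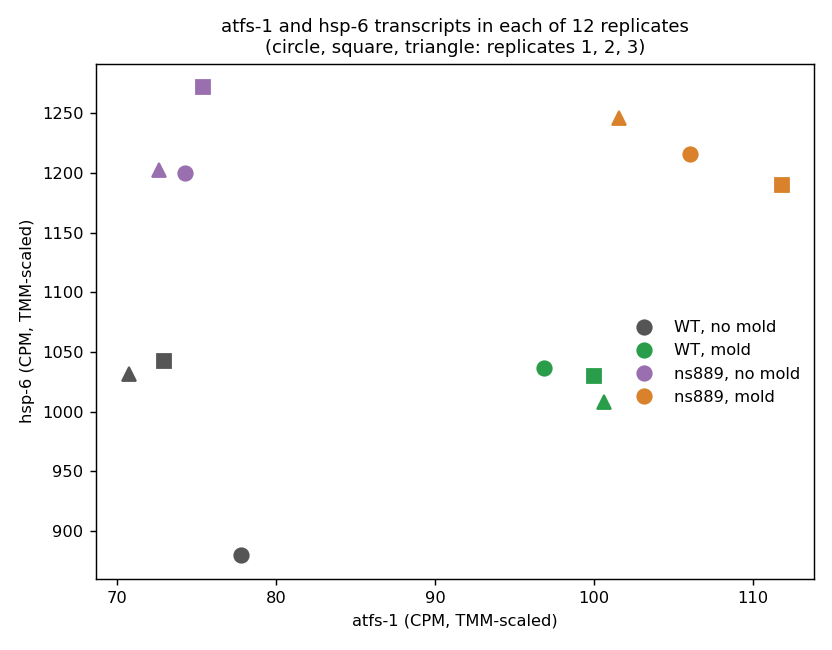
CPM of atfs-1 (x axis) against CPM of hsp-6 (y axis) in the 12 replicates, with group marked by colour and replicate number by shape, on axes that do not start at 0. Mold separates the points along x, near 74 CPM without mold and 99.2 to 106.5 CPM in the means with mold, and genotype separates them along y.

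The chaperonin gene hsp-60 varied more between replicates than hsp-6, and no comparison of it passed. Its level in WT was 558, 728 and 701 CPM without mold and 686, 623 and 534 CPM with mold. In ns889 the levels were 805, 777 and 762.5 CPM without mold and 757, 644 and 725 CPM with mold. All 3 ns889 replicates without mold were above all WT replicates without mold and above all ns889 replicates with mold. The genotype difference without mold was 1.18-fold (log2 0.24 ± 0.11, unadjusted p = 0.0496, adjusted p = 0.424 in edgeR's quasi-likelihood test). With mold it was 0.21 ± 0.11 (adjusted p = 0.255), and averaged over both conditions 0.22 ± 0.08 (adjusted p = 0.0909). The log2 difference with mold was -0.11 in WT (interval -0.35 to 0.13) and -0.14 in ns889 (interval -0.38 to 0.10). In the WT libraries that stood apart, hsp-60 was the lowest of its group, at 558 CPM in replicate 1 without mold and 534 CPM in replicate 3 with mold.

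The cochaperone gene dnj-10 was steady. Its level in WT was 81.9, 93.2 and 89.4 CPM without mold and 89.5, 95.5 and 102 CPM with mold. In ns889 it was 95.6, 99.95 and 94.2 CPM without mold and 95.8, 90.7 and 96.6 CPM with mold. The ns889 replicates without mold were all above the WT replicates without mold, by 0.13 ± 0.07 on the log2 scale (adjusted p = 0.524), and with mold the genotypes overlapped. The log2 difference with mold was 0.12 ± 0.07 in WT (adjusted p = 0.292) and -0.03 ± 0.07 in ns889 (adjusted p = 0.868).

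The proportions of the chaperone transcripts followed these values. Per kilobase, hsp-6 was 7.64 ± 0.274 and 7.36 ± 0.591 times dnj-10 in WT and 8.69 ± 0.081 and 8.84 ± 0.14 times in ns889, without and with mold (SD, n = 3 each). The WT ratios, 6.75 to 7.93, lay below the ns889 ratios, 8.59 to 8.98. The ratio of hsp-6 to hsp-60 was 1.29 ± 0.0641 and 1.45 ± 0.165 in WT and 1.35 ± 0.0633 and 1.49 ± 0.104 in ns889. Its ranges overlapped between groups, except for WT without mold, 1.24 to 1.36, against ns889 with mold, 1.39 to 1.59. The ratio of hsp-6 to atfs-1 was 10.4 ± 1.41 in WT without mold and 8.004 ± 0.265 with mold. In ns889 it lay between 12.5 and 13.1 without mold and averaged 8.87 ± 0.63 with mold.

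The regulator gene dve-1 did not pass any comparison. Its level in WT was 18.9, 22.995 and 27.5 CPM without mold and 23.6, 24.4 and 25.6 CPM with mold. The ns889 replicates were at 24.1, 23.2 and 25.4 CPM without mold and 26.3, 30.3 and 25.2 CPM with mold. The WT replicates without mold spanned 18.9 to 27.5 CPM (SD 4.31), and only the ns889 value of 30.3 CPM lay outside that range. The log2 difference with mold was 0.08 ± 0.12 in WT (interval -0.19 to 0.35, adjusted p = 0.696) and 0.17 ± 0.12 in ns889 (interval -0.10 to 0.44, adjusted p = 0.588). The genotype difference was 0.06 ± 0.12 without mold and 0.15 ± 0.12 with mold (adjusted p = 0.945 and 0.447).

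The ubl-5 gene, a partner of dve-1, had the widest spread of the 8. Its level in WT was 19.3, 14.7 and 13.2 CPM without mold and 17.9, 14.6 and 15.4 CPM with mold. In ns889 its values were 16.8, 13.8 and 11.7 CPM without mold and 17.8, 12.7 and 13.4 CPM with mold. The 4 groups overlapped throughout, and replicate 1 was the highest in each of the 4 groups, by a mean of 0.38 on the log2 scale over replicates 2 and 3. Replicate 1 of each group had 1 sequencing run and replicates 2 and 3 had 2, and 5.24% of tested genes were highest in replicate 1 of every group. The log2 difference with mold was 0.02 ± 0.18 in WT (interval -0.37 to 0.42) and 0.05 ± 0.18 in ns889 (interval -0.34 to 0.45). These intervals are the widest of the 8, and their upper bounds lie 0.42 and 0.45 above 0, against the atfs-1 changes of 0.43 and 0.52.

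The clpp-1 protease gene was the most even of the 8 genes. Its level in WT was 22.9, 22.9 and 23.5 CPM without mold and 25.0, 23.8 and 24.6 CPM with mold. In ns889 the levels were 23.2, 22.9 and 22.03 CPM without mold and 23.7, 23.9 and 22.8 CPM with mold. In WT the replicates with mold were all above those without, yet the difference of 0.08 ± 0.07 on the log2 scale did not pass (interval -0.07 to 0.24, adjusted p = 0.481). In ns889 the groups overlapped, with a log2 difference of 0.05 (interval -0.11 to 0.21). The genotype differences were -0.02 without mold and -0.06 with mold (adjusted p = 0.968 and 0.628).

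The lonp-1 protease gene was likewise steady. Its level in WT was 159.96, 171 and 170.2 CPM without mold and 167, 180.2 and 186 CPM with mold. The ns889 values were 168, 183 and 169 CPM without mold and 167, 163 and 164 CPM with mold. In WT the groups overlapped (log2 difference 0.09 ± 0.06, adjusted p = 0.372), and in ns889 all replicates with mold were below those without (log2 -0.08 ± 0.06, adjusted p = 0.627). The difference of these responses, -0.16 on the log2 scale, had an unadjusted p of 0.0784 and an adjusted p of 0.87. The ratio of lonp-1 to clpp-1 per kilobase was 1.73 ± 0.0573 and 1.74 ± 0.123 in WT and 1.83 ± 0.0912 and 1.68 ± 0.0408 in ns889, without and with mold.

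**Figure D4:**
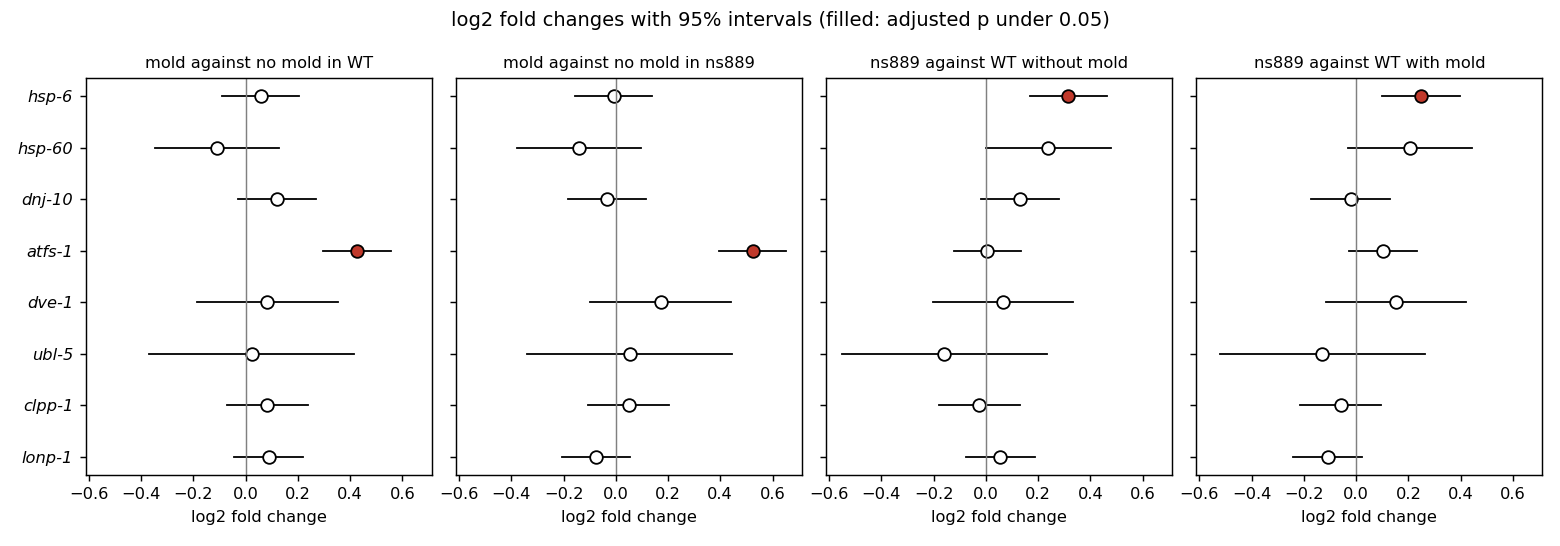
Log2 fold change of each of the 8 genes in the mold comparisons and the genotype comparisons, with 95% intervals and filled points where the adjusted p was under 0.05. The filled points are atfs-1 for mold, at 0.43 and 0.52, and hsp-6 for genotype, at 0.31 and 0.25.

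Counted together, 1 of the 8 genes passed in each comparison of 2 groups. With mold this was atfs-1, against 6.27% of all tested genes called in WT and 3.14% in ns889. Between genotypes it was hsp-6, against 2.87% of all tested genes without mold and 6.73% with mold. No gene of the 8 passed in the difference of the mold responses by edgeR's quasi-likelihood test, where 0.13% of tested genes did, and 0 of the 8 had an unadjusted p under 0.05, against 4.44% of tested genes. The averaged contrasts called atfs-1 for mold, against 14.8% of tested genes, and hsp-6 for genotype, against 10.4%.

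The replicates of the groups compared did not overlap for 2 of the 8 genes with mold in WT (background 17.5%), 3 in ns889 (31.6%), 3 between genotypes without mold (18.3%) and 2 between genotypes with mold (31.4%). The median log2 change of the 8 was 0.08 with mold in WT and 0.02 in ns889, beside 0.01 and -0.02 over all tested genes. Between genotypes it was 0.06 without mold and 0.04 with mold, beside -0.01 in both. The comparisons share groups with each other, so their counts are not independent.

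The spread between replicates differed among the 8 genes. The within-group SD on the log2 scale was 0.0323 for clpp-1, smaller than in 99.5% of 7980 genes of at least 10 CPM, whose median was 0.122. It was 0.0529 for atfs-1, 0.0592 for lonp-1, 0.075 for dnj-10 and 0.0754 for hsp-6. It was 0.152 for hsp-60, 0.155 for dve-1 and 0.237 for ubl-5, above that median. Smaller differences could thus pass for clpp-1 or atfs-1 than for ubl-5.

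Over the 12 replicates, the profiles of dnj-10 and lonp-1 were the most alike of the 28 pairs of these genes, with a root mean square difference of 0.0547 between their centred log2 CPM values. The next were clpp-1 and lonp-1 at 0.0719. The pair hsp-6 and hsp-60 was at 0.119. The least alike were hsp-60 and atfs-1 at 0.351, and hsp-6 and atfs-1 were at 0.271. Among 9613 genes, the 5 most like hsp-6 were nol-58 (0.0496), cyn-1 (0.0512), bam-2 (0.0569), pdcd-2 (0.0572) and mac-1 (0.0572). The 5 most like atfs-1 were Y32F6A.5 (0.0884), wdr-23 (0.0961), K12H4.7 (0.0977), Y25C1A.13 (0.0979) and kin-32 (0.111). These likenesses are descriptions over replicates that share groups.

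Other genes of the mitochondrial response were examined in lists, which were likewise chosen with earlier results of these data known. Of 21 genes for mitochondrial protein import and folding, 0 passed in any comparison by edgeR's quasi-likelihood test. Of all tested genes, 2.87% to 6.73% were called in the comparisons of 2 groups. The median log2 change of the 21 was 0.01 with mold in WT and -0.05 with mold in ns889. Between genotypes it was 0.09 without mold and 0.04 with mold. The list holds the prohibitin genes phb-1 and phb-2, which encode the ring complex of the inner membrane. The phb-1 level was 237 ± 2.83 CPM in WT without mold and 236 ± 21.5 with mold, and the phb-2 level 232.5 ± 6.04 and 245 ± 8.69 (SD, n = 3 each).

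Of 10 further mitochondrial protease genes, K07A3.3 fell with mold in WT, from 14.9 ± 3.60 to 8.40 ± 2.55 CPM (log2 -0.82 ± 0.22, adjusted p = 0.0492). That call was lost when any 1 of 9 of the 12 libraries was left out, the outlying replicate 3 of exposed WT among them. The remaining 9 did not pass with mold in WT, where 6.27% of all tested genes were called, and none of the 10 passed elsewhere. The most abundant, spg-7, for an inner membrane protease, was at 221 ± 18.4 CPM in WT without mold and 223.5 ± 7.22 with mold, and D2030.2 was at 106 ± 12.03 and 115.5 ± 4.95 CPM.

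Of 15 genes for other regulators of the response, skn-1 rose with mold in WT, from 223 ± 6.96 to 281 ± 26.7 CPM (log2 0.33 ± 0.07, adjusted p = 0.0284). It encodes the transcription factor of the oxidative stress response. The skn-1 call was lost without replicate 2 or 3 of either WT group. In ns889 its log2 difference with mold was 0.25 ± 0.07 (adjusted p = 0.102). The ulp-4 gene, for a SUMO protease that acts on ATFS-1 and DVE-1, was higher in ns889 without mold, at 256 ± 6.61 against 206.5 ± 12.7 CPM (log2 0.31 ± 0.07, adjusted p = 0.0277). With mold its genotype difference was 0.25 ± 0.07 (adjusted p = 0.0503). The ulp-4 call without mold was lost when any 1 of 7 libraries was left out: replicate 2 or 3 of unexposed WT, replicate 1 of exposed WT, replicate 2 of exposed ns889, or any replicate of unexposed ns889. The other genes of this list, haf-1, lin-65 and met-2 among them, did not pass. With mold in WT, 1 of 15 genes is close to the 6.27% of all tested genes called. Between genotypes without mold 2.87% of all tested genes were called.

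Of 14 genes for mitochondrial dynamics and mitophagy, lgg-1, an Atg8 homolog of autophagy, rose with mold in WT, from 224 ± 13.8 to 265 ± 7.21 CPM (log2 0.25 ± 0.07, adjusted p = 0.0466). In ns889 its log2 difference was 0.22 ± 0.07 (adjusted p = 0.101). The fission gene fis-1 was higher in ns889 than in WT with mold, at 4.27 ± 0.17 against 2.44 ± 0.88 CPM (log2 0.81 ± 0.22, adjusted p = 0.0493). The lgg-1 call was lost when any 1 of 11 of the 12 libraries was left out, all but replicate 1 of unexposed WT. The fis-1 call was lost when any 1 of 10 was left out, all but replicate 1 of each WT group. The lgg-1 and fis-1 calls were each 1 of 14 genes, close to the share of all tested genes called. That share was 6.27% with mold in WT and 6.73% between genotypes with mold. The inner membrane fusion gene eat-3 was at 214 ± 3.14 CPM in WT without mold and 232 ± 24.9 with mold.

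A list of 7 genes outside protein folding that have been reported to rise with mitochondrial stress held the large changes. With mold, 3 of the 7 rose in WT and 4 in ns889, where 6.27% and 3.14% of all tested genes were called, and the median log2 change was 0.73 and 0.87 beside 0.01 and -0.02 over all genes. As the list was chosen with earlier results of these data known, these counts describe its genes and do not test the list. The lysozyme gene lys-2 rose from 16.97 ± 4.15 to 73.4 ± 21.4 CPM in WT and from 10.6 ± 1.02 to 57.1 ± 18.9 CPM in ns889 (log2 2.11 ± 0.26 and 2.42 ± 0.27, adjusted p = 0.00109 and 0.0004). The C-type lectin gene clec-65 rose by 0.73 ± 0.13 in WT and 0.87 ± 0.13 in ns889 on the log2 scale (adjusted p = 0.0106 and 0.00263).

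The cytochrome P450 gene cyp-14A4 rose in WT from 0.731 ± 0.0679 to 29.1 ± 6.83 CPM, the largest change of the list (log2 5.31 ± 0.27, adjusted p = 2.17e-06). In ns889 it went from 0.17 ± 0.0716 to 0.456 ± 0.117 CPM (log2 1.44 ± 0.31, adjusted p = 0.0273). That ns889 call was lost without replicate 1 or 3 of either ns889 group (adjusted p up to 0.126) and with limma-voom (0.234). In ns889 clec-4, another C-type lectin gene, rose by 2.01 ± 0.42 on the log2 scale (adjusted p = 0.0227), a call lost without any replicate of unexposed ns889 or replicate 1 or 2 of exposed ns889. The count of 4 in ns889 became 2 without replicate 1 or 3 of unexposed ns889 or replicate 1 of exposed ns889. In WT the count was 3 to 4 with any 1 library left out.

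Of 66 mitochondrial ribosomal protein genes, 10 were higher and 0 lower in ns889 than in WT without mold, where 2.87% of all tested genes were called. All 66 had a log2 difference above 0, or 64 of them with another scaling, and their median was 0.19 beside -0.01 over all genes. The mrpl-9 level was 66.1 ± 1.74 CPM in WT and 86.6 ± 2.71 in ns889 (log2 0.39 ± 0.06, adjusted p = 0.0016). The mrpl-11 and mrpl-45 differences were 0.38 ± 0.06 and 0.46 ± 0.08 on the log2 scale (adjusted p = 0.00342 and 0.00405). The mrpl-15 level was 64.7 ± 3.47 CPM in WT and 90.9 ± 7.45 in ns889 (log2 0.49 ± 0.08, adjusted p = 0.0044). The median of the 8 response genes in that comparison was 0.06.

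With mold 48 of the 66 had a log2 difference of ns889 against WT above 0, or 46 with another scaling, and the median was 0.09. Of the 66, 6 were called higher in ns889 and 0 lower, where 6.73% of all tested genes were called. They include mrpl-22, at 25.0 ± 0.926 CPM in WT and 33.3 ± 1.67 in ns889 (log2 0.41 ± 0.08, adjusted p = 0.00592). Also among them are mrpl-11, mrpl-15 and mrps-14, with log2 differences of 0.30, 0.35 and 0.28 (adjusted p = 0.0115, 0.0239 and 0.0376), whose calls were lost without any 1 of 2, 5 and 9 libraries. With mold against without, 0 of the 66 passed in either genotype, and the median was 0.09 in WT and -0.02 in ns889. The count of 10 without mold fell to 5 without replicate 2 of unexposed WT or replicate 2 or 3 of unexposed ns889. It was 6 without replicate 1 of exposed WT, replicate 1 of unexposed ns889 or replicate 2 of exposed ns889, and 18 without the pair of outlying WT libraries. The count of 6 with mold ranged from 1, without replicate 2 of either group with mold, to 10, without replicate 1 of unexposed WT, and was 11 without the pair. It was 2 without replicate 3 of exposed ns889, and 3 without replicate 2 of unexposed WT, replicate 2 or 3 of unexposed ns889, or replicate 1 of exposed ns889. With another scaling (RLE size factors) the counts without and with mold were 6 and 3, and in the fits of the 2 groups alone 5 and 2. They were 14 and 10 with DESeq2, 11 and 6 with limma-voom, and 15 and 9 with the replicate number as a block.

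Of 5 genes that maintain or express mitochondrial DNA, rpom-1 and mtss-1 were higher in ns889 in both conditions. Of all tested genes, 2.87% were called without mold and 6.73% with mold. In each condition 3 of the 5 had a log2 difference above 0, with medians of 0.19 without mold and 0.05 with mold. The rpom-1 gene encodes the mitochondrial RNA polymerase, and mtss-1 a single-stranded DNA binding protein of mitochondria. The rpom-1 level was 61.3 ± 0.6 CPM in WT and 84.0 ± 2.01 in ns889 without mold (log2 0.46 ± 0.05, adjusted p = 0.00044). With mold it was 67.6 ± 1.86 and 86.1 ± 2.39 CPM (log2 0.35 ± 0.05, adjusted p = 0.00215). The mtss-1 difference was 0.35 ± 0.06 without mold and 0.26 ± 0.06 with mold (adjusted p = 0.0081 and 0.0337). The mtss-1 call was lost without replicate 3 of unexposed WT in the comparison without mold, and without any 1 of 8 libraries in that with mold.

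Of 18 chaperone genes of the cytosol and endoplasmic reticulum, F44E5.5, an HSP70 family gene with a near-identical neighbour, was higher in ns889 without mold, at 1.79 ± 0.492 against 0.677 ± 0.139 CPM (log2 1.40 ± 0.32, adjusted p = 0.0326). Its counts may be split with that copy, and the call was lost when any 1 of 6 libraries was left out. The other 17 did not pass in that comparison, where 2.87% of all tested genes were called. None of the 18 passed in the others. The most abundant, hsp-1 and hsp-90, were at 3503 ± 162 and 2894 ± 131 CPM in WT without mold and at 3495 ± 268 and 3026 ± 73.7 with mold.

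All calls of the genes named from these lists held without the pair of outlying WT libraries, with adjusted p between 3.67e-07 and 0.0274. More genes were called over all genes without this pair in each comparison, so holding there says little. In the fits of the 2 compared groups alone, the calls of K07A3.3 (adjusted p = 0.229), skn-1 (0.224), lgg-1 (0.235) and clec-65 (0.131) for mold in WT were lost. Between genotypes those of ulp-4 (0.124), mtss-1 (0.0806) and F44E5.5 (0.0565) were lost without mold. With mold those of fis-1 (0.116), mtss-1 (0.0814), mrpl-11 (0.0591) and mrps-14 (0.0842) were lost. The calls of K07A3.3 (0.0732), lgg-1 (0.0641) and F44E5.5 (0.0624) were also lost with limma-voom.

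**Figure D5:**
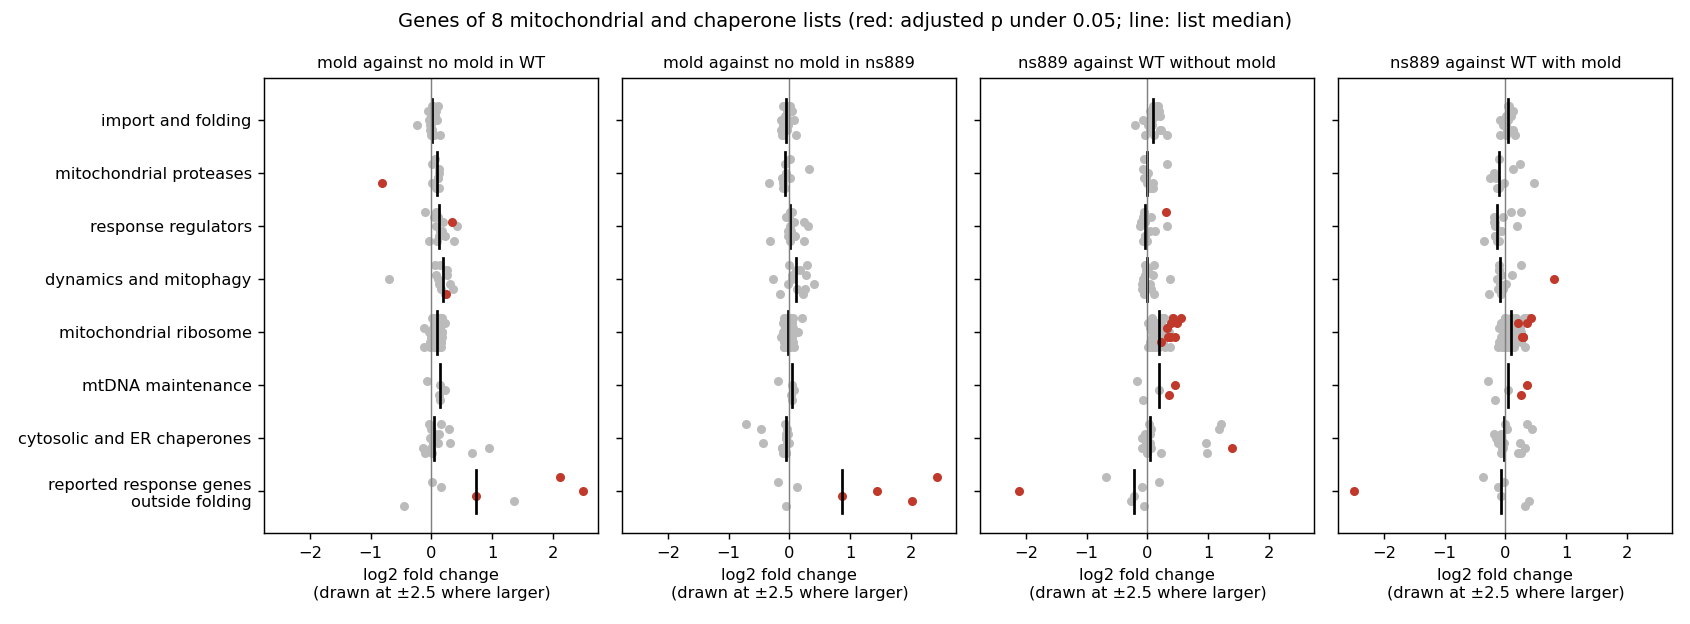
Log2 fold changes of the genes in each list for the mold comparisons and the genotype comparisons, with a point for each gene, red where the adjusted p was under 0.05 and grey otherwise, a black line for the median of the list, and values beyond 2.5 in size drawn at 2.5. The mitochondrial ribosome points lie above 0 in ns889 against WT without mold, with a median of 0.19.

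Other tissue markers differed between the groups in which these genes were compared. The summed level of 6 intestinal markers was 22308 to 23444 and 21998 to 27680 CPM in WT and 20570 to 21411 and 14842 to 16997 in ns889, without and with mold. Of the 6, 1 was lower with mold than without in ns889, and 1 was lower in ns889 than in WT with mold. Of all tested genes, 3.14% and 6.73% were called in these comparisons. The sum does not stand for each marker. With mold in ns889, 5 of the 6 had a log2 change above 0, with a median of 0.14. Between genotypes with mold 2 of the 6 were above 0, with a median of -0.05. The summed level of 5 epidermal markers was 2689 to 3027 and 2733 to 3074 CPM in WT, without and with mold. In ns889 it was 2691 to 2851 and 2301 to 2734. Of the 5, 1 was higher in ns889 than in WT with mold, with 3 above 0 and a median log2 difference of 1.70. With mold in ns889 0 of the 5 passed, 3 were above 0 and the median was 0.98. With mold in WT 2 were above 0 and the median was -0.23. The sum of 6 neuronal markers was between 252 and 319 CPM in all 12 replicates. That of 6 body muscle markers was 7758.5 to 10058 and 6755 to 8770 CPM in WT, without and with mold. In ns889 the muscle sum was 8989 to 9306 and 7462 to 8907.5. With mold 0 of the 6 muscle markers had a log2 change above 0 in either genotype, and 0 passed. Their medians were -0.18 in WT and -0.19 in ns889. In ns889 against WT with mold, 6 of 29 sperm markers were higher, with a median log2 difference of 0.53, and 2 of 15 oocyte markers lower. Of all tested genes, 6.73% were called there. The sperm count of 6 was 2 to 11 with any 1 library left out, and 3 with the replicate number as a block. A second sperm list, of major sperm protein genes, did not show higher levels in ns889. Of its 29 tested genes 0 passed there, 16 were above 0, and the median was 0.004. The part of these tissues in the differences of hsp-6, the mitochondrial ribosomal genes and rpom-1 was not tested.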

How the data were processed

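Counts per gene were deposited by the authors without normalization, for 20 libraries. STAR 2.4a, featureCounts, FastQC 0.11.12, edgeR 3.28.1 and limma 3.42.2 are named with the WBcel235 genome, per the submitters' processing notes. In the sources used here, the strand setting and annotation release of the counting are not given. A single run made up replicate 1 of each group, and replicates 2 and 3 had 2 runs, which were summed because they differed by a chi-square of only 1.07 to 1.11 per degree of freedom, against 11.6 to 182 between replicates of a group.

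Counts were fitted with edgeR 4.0.16 (R 4.3.3): TMM scaling, filterByExpr, and 1 robust quasi-likelihood model of the 4 group means over the 12 replicates. Depths are unscaled totals, and CPM values use the scaled totals. Benjamini-Hochberg adjustment covered all 16980 genes that passed the filter, and the threshold was 0.05. Standard errors come from the F statistic, and intervals are 95%. Of the 46904 IDs, 44017 had a symbol in the name table. All 8 members are named. Of each list, genes were named from the up to 4 of smallest p that passed in a comparison, or the 2 most abundant where none did. The names haf-1, lin-65 and met-2 were added. Likeness was the root mean square difference of centred log2 CPM over genes of at least 5 CPM. Alternatives were other size factors, DESeq2 1.42.0, limma-voom (limma 3.58.1), other filters, the first run alone, a replicate block, the 2 groups alone and leaving out each replicate. The members and lists were chosen with earlier results of these data known.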

Additional observations from a re-analysis of the deposited data

Results flagged for a closer look

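The response of cyp-14A4, a gene of the list of response genes outside protein folding, differed between genotypes by the test of the difference itself. Its rise with mold was smaller in ns889 than in WT by a log2 difference of -3.88 ± 0.42 (adjusted p = 0.00214, edgeR's quasi-likelihood test over 16980 genes, of which 0.13% passed). All 3 WT replicates and all 3 ns889 replicates with mold were above those of their genotype without mold. Over the alternatives the adjusted p lay between 1.48e-19 and 0.054, and it missed the threshold only with limma-voom (0.054). None of the 8 response genes differed in this way.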

How the results depend on the processing

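The counts of genes called, over all genes tested, depended on the settings. For mold in WT the count was 1064 (26.6% of them higher), and it was 2287 with DESeq2, 346 with limma-voom (49.7% higher), 206 with a filter of 5 CPM (44.7% higher), 83 in the fit of the 2 groups alone (56.6% higher) and 159 to 4810 without 1 replicate. For mold in ns889 it was 534, and 983 with DESeq2, 266 with the 5 CPM filter, 1634 in the 2 groups alone and 209 to 810 without 1 replicate. Between genotypes without mold it was 488, and 809 with DESeq2, 325 in the 2 groups alone and 319 to 669 without 1 replicate. Between genotypes with mold it was 1143, and 1976 with DESeq2, 669 with the 5 CPM filter and 545 to 2185 without 1 replicate. For the difference of the mold responses it was 22, and 76 with DESeq2, 11 with the 5 CPM filter and 15 to 39 without 1 replicate. Without replicate 1 of unexposed WT and replicate 3 of exposed WT, a choice made after seeing the data, these counts were 3860, 2024, 1317, 1873 and 114. The 5 CPM filter tests fewer genes, and for the other settings the cause was not tested.

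With the replicate number as a block the count for mold in WT was 312 (51.9% higher). Deviations of same-numbered samples correlated at -0.303 to 0.276. These correlations run over all genes and cannot settle whether same-numbered samples share a part of their spread. Replicate 1 was the highest in all 4 groups for 5.24% of tested genes and the lowest in all 4 for 5.22%. Of the members' calls the block removed that of hsp-6 between genotypes with mold (log2 0.25, adjusted p = 0.0537) and no other. Of the calls of genes named from lists it removed K07A3.3 (0.088), skn-1 (0.054) and lgg-1 (0.0692) for mold in WT, cyp-14A4 (0.0544) for mold in ns889 and fis-1 (0.0537) between genotypes with mold.

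Directions turned only for differences that had not passed. These were, on the log2 scale, ubl-5 for mold in WT (-0.0056 with no filter, -0.016 with the 5 CPM filter) and hsp-6 for mold in ns889 (0.0096 with RLE size factors and with DESeq2, 0.0065 with the first run alone, 0.0062 in the 2 groups alone). The atfs-1 genotype difference without mold was -0.022 with RLE size factors and with DESeq2, -0.012 with no filter, -0.031 with the first run alone and -0.015 in the 2 groups alone. With the 5 CPM filter dnj-10 between genotypes with mold was 0.029, and the differences of the mold responses of hsp-60 and clpp-1 were 0.0076 and 0.0070. Without that pair of libraries, hsp-6 and dve-1 for mold in WT were -0.0054 and -0.075, dve-1 and ubl-5 between genotypes without mold -0.062 and 0.017, dnj-10 between genotypes with mold 0.029 and the ubl-5 difference of responses -0.17.

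Without 1 replicate the ranges that crossed 0 were, for mold in WT, -0.017 to 0.10 for hsp-6, -0.043 to 0.23 for dve-1 and -0.089 to 0.20 for ubl-5 (0.22 without that pair). For mold in ns889 they were -0.026 to 0.022 for hsp-6, -0.052 to 0.0078 for dnj-10 and -0.11 to 0.20 for ubl-5. Between genotypes without mold they were -0.024 to 0.046 for atfs-1, -0.061 to 0.21 for dve-1 and -0.31 to 0.017 for ubl-5, and with mold -0.073 to 0.029 for dnj-10. For the difference of responses they were -0.11 to 0.0083 for hsp-6, -0.12 to 0.076 for hsp-60, -0.056 to 0.21 for dve-1, -0.15 to 0.18 for ubl-5 and -0.055 to 7.25e-05 for clpp-1.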
